A study of Sus scrofa with 3 samples.

Results

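The genes described here are ALB, AFP, PLG and FGA, of liver-type plasma proteins, and ASGR1, of a liver receptor for plasma glycoproteins. All 5 were measured in pig kidney. They are 5 of the 34570 genes in the deposited count table. ALB, AFP, PLG and ASGR1 were chosen by their counts in these same libraries, where they stood far apart between groups, and FGA was set beside them as a liver gene with low counts. The values of these 5 genes are therefore a description and carry no test.

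The animals were male Wuzhishan pigs, a Chinese miniature breed, 6 to 7 months old, and every group received a diet rich in fat and cholesterol. Group IM was intact, group CM was castrated, and group CMT was castrated and given testosterone replacement. Kidney RNA of 3 pigs was pooled for each group and sequenced as 1 library, so 9 pigs gave 3 libraries. The series' design text speaks of triplicates, but 1 count column for each group was used here, and neither the testosterone dose nor the time since castration is known here.

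Albumin, the product of ALB, is the main protein of blood plasma and is made by hepatocytes, the parenchymal cells of the liver. Alpha-fetoprotein, from AFP, is its fetal counterpart, and the genes of these proteins lie next to each other in the genome. Plasminogen, from PLG, is the precursor of the clot-dissolving protease plasmin, and FGA encodes the alpha chain of fibrinogen, the clot protein that plasmin cuts. ASGR1 encodes the major subunit of the asialoglycoprotein receptor, through which hepatocytes take up plasma glycoproteins that have lost their terminal sialic acid. The kidney filters small amounts of plasma protein, which proximal tubule cells take back through the receptors megalin and cubilin, and this uptake moves protein rather than messenger RNA.

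The libraries held 16459771 counts in IM, 18503537 in CM and 13601475 in CMT. Levels are given as CPM, counts scaled to library size, with TMM factors, which correct for differences in library composition. Where 3 counts of a gene stand together, they belong to IM, CM and CMT in this order. An interval in parentheses is an exact 95% interval, which covers counting error only, since no library was replicated and reads are not independent molecules. For ratios, 3 counts were put in place of 0 counts, or 0.181 CPM in IM, 0.159 CPM in CM and 0.227 CPM in CMT. The exact interval of 0 counts reaches somewhat higher, to 0.223 CPM in IM. For a gene with a mean of at least 1 CPM, a difference was called when the interval of the ratio lay wholly beyond 2-fold. Of the 5 genes, 4 passed that mean, and FGA did not.

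ALB gave 1952 counts in IM, 24 in CM and 404 in CMT. Scaled, these were 117.9 CPM (112.7 to 123.2), 1.27 CPM (0.813 to 1.89) and 30.5 CPM (27.6 to 33.7). The castrated pool was thus the low one, and the pool given testosterone lay between it and the intact pool, with no overlap of the intervals. The CM level was 1.08% of the IM level (0.688% to 1.61%), and the CMT level was 25.9% of it (23.2% to 28.8%). In pooled tissue, fewer cells that express a gene and less RNA per cell cannot be told apart, and neither can 1 pig with a high level and 3 pigs with a moderate one.

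AFP gave 194 counts in IM, 6 in CM and 111 in CMT, or 11.7 CPM (10.1 to 13.5), 0.317 CPM (0.116 to 0.691) and 8.39 CPM (6.90 to 10.10). Its CM level was 2.71% of the IM level (0.982% to 6.00%). Its CMT level reached 71.6% of the IM level (56.2% to 90.8%), a larger share than that of ALB, and the intervals of the shares did not overlap.

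PLG gave 128 counts in IM, 4 in CM and 16 in CMT, or 7.73 CPM (6.45 to 9.19), 0.212 CPM (0.0577 to 0.542) and 1.21 CPM (0.691 to 1.96). The order of the libraries was that of ALB and AFP, but the CMT level was 15.6% of the IM level (8.68% to 26.4%). FGA gave 17 counts in IM, 0 in CM and 5 in CMT. The order was again IM, CMT, CM. FGA in CMT was 2.72-fold below IM, with an interval of 0.963 to 9.42, so these libraries were not separated at this depth. CMT stood above CM on 5 counts against 0, with an interval of the ratio from 1.31.

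ASGR1 ran the other way relative to IM, with 0 counts in IM, 40 in CM and 50 in CMT. Its levels were 2.12 CPM (1.51 to 2.88) in CM and 3.78 CPM (2.80 to 4.98) in CMT, and at most 0.223 CPM in IM by the interval. The intact pool was the low one for this gene. The intervals of CM and CMT overlapped, but the ratio of CMT to CM, 1.79, had an interval of 1.15 to 2.78, which excludes 1.

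**Figure D1:**
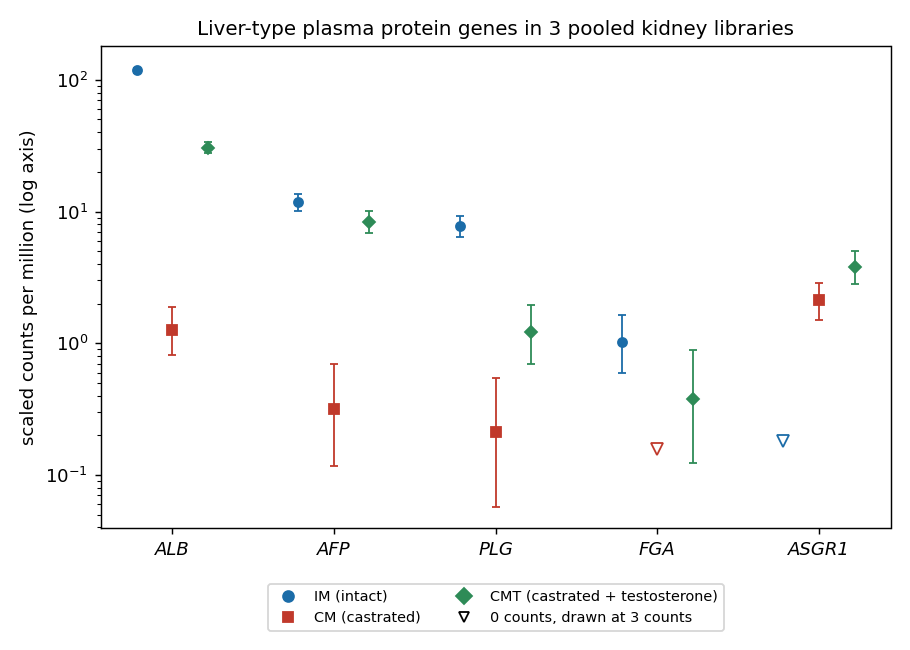
TMM-scaled CPM on a log axis for ALB, AFP, PLG, FGA and ASGR1 in the IM, CM and CMT pools, 1 library each; bars are exact 95% Poisson intervals, and an open triangle marks 0 counts, drawn at the level of 3 counts. ALB, AFP and PLG are lowest in CM, whereas ASGR1 has 0 counts in IM and 40 and 50 counts in the castrated pools.

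The first comparison set the castrated pool against the intact one. ALB was lower in CM by 92.9-fold (62.2 to 145), AFP by 36.9-fold (16.7 to 102) and PLG by 36.5-fold (13.9 to 136). ASGR1 was 11.7-fold higher with 3 counts put in place of 0, and at least 9.07-fold higher by the interval of the ratio. Among all 15472 compared genes 1.52% were called lower and 1.20% higher in CM; since the genes were chosen from this contrast, their 3 lower calls and 1 higher call are not read against that share. For FGA, 17 counts against 0 give a level in IM 6.47-fold above that in CM with 3 counts in place of 0. By the interval it was at least 4.71-fold above, but the FGA mean of 0.468 CPM kept it out of the compared genes.

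The second comparison set the castrated pool given testosterone against castration alone. ALB was higher in CMT by 24.0-fold (15.9 to 38.0) and AFP by 26.4-fold (11.8 to 73.5). PLG was 5.71-fold higher on 16 counts against 4, and its interval of 1.84 to 23.5 reached below 2-fold, so it was not called. ASGR1 stood 1.79-fold higher (1.15 to 2.78), also without a call. In this comparison 1.84% of the compared genes were called higher and 1.11% lower.

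The third comparison set CMT against IM, and shares 1 library with each of the others. ALB remained lower in CMT by 3.86-fold (3.47 to 4.31) and PLG by 6.40-fold (3.79 to 11.5). AFP, at 1.40-fold lower (1.10 to 1.78), was not called. ASGR1 was 20.8-fold higher in CMT than in IM with 3 counts put in place of 0, and at least 16.3-fold higher by the interval. Of all compared genes, 0.905% were called higher and 0.595% lower between these pools.

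The other genes of the albumin family did not all share this pattern. AFM, which encodes the vitamin E-binding plasma protein afamin, gave 14 counts in IM, 1 in CM and 3 in CMT. Its order was that of ALB and AFP, and the ratio of IM to CM was 16.0 (2.43 to 676), but its mean was under 1 CPM. GC, which encodes the vitamin D-binding protein, gave 339, 313 and 335 counts, or 20.5, 16.6 and 25.3 CPM. GC was called in none of the 3 comparisons, its ratio of IM to CM being 1.24 (1.06 to 1.45).

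By the order of genes in RefSeq (assembly Sscrofa11.1), ALB, AFP and AFM follow each other, with ANKRD17 as the next protein-coding gene beside ALB. ANKRD17, an ankyrin repeat protein gene, gave 1268, 1404 and 925 counts, a ratio of IM to CM of 1.03 (0.955 to 1.11). The difference seen for ALB therefore did not extend to this neighbour. Beside PLG, the kinase gene MAP3K4 had 239, 269 and 208 counts, a ratio of IM to CM of 1.01 (0.849 to 1.21). SLC22A3, an organic cation transporter gene on the other side of PLG, had 12 counts in each library and was too low to compare. These neighbours were looked up after the values of the 5 genes were known.

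**Figure D2:**
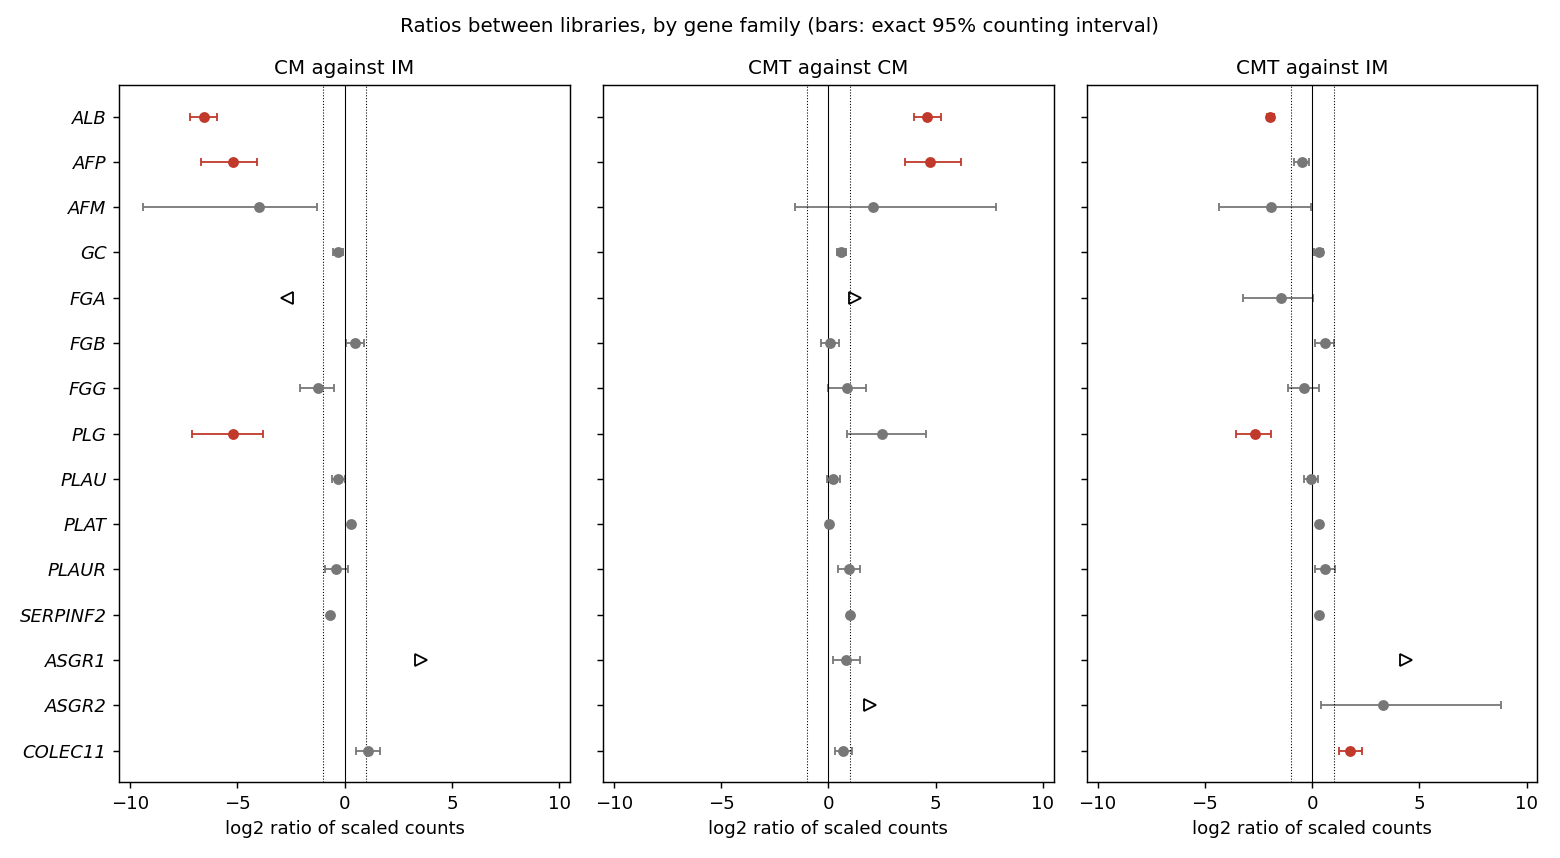
The log2 ratio of scaled counts in each of the 3 comparisons for genes of the albumin family, fibrinogen, the plasminogen system and liver lectins. Bars are exact 95% counting intervals, red marks a call beyond 2-fold, and grey no call or a mean under 1 CPM. Open triangles mark a ratio with 3 counts in place of 0, and dotted lines 2-fold. ALB, AFP and PLG lie far left in CM against IM, while GC, PLAU and PLAT lie between the dotted lines.

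Of the compared genes of the plasminogen system, calls were made for PLG alone, the gene chosen by its values. The list of activators, inhibitors, receptors and related proteases held 17 genes, of which 14 were in the table and 11 passed 1 CPM. The 10 compared genes other than PLG gave 0 calls in each of the 3 comparisons, with median log2 folds of -0.19, 0.31 and 0.23 in the order in which the comparisons were given, beside -0.0064, -0.0043 and -0.013 over all compared genes. With at most 1.84% of all compared genes called in a direction, 0 of 10 says nothing particular of this list.

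Among the activators, PLAU, which encodes urokinase, had 204, 191 and 157 counts. PLAT, which encodes tissue plasminogen activator, had 1415, 1976 and 1429 counts. Neither was called, with ratios of 1.22 (0.996 to 1.49) of IM to CM for PLAU and 1.22 (1.14 to 1.31) of CM to IM for PLAT. PLAUR, the urokinase receptor gene, had 67, 59 and 81 counts.

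Among the inhibitors, SERPINF2, the gene of the plasmin inhibitor antiplasmin, had 8382, 5985 and 8340 counts. SERPINF2 was thus lowest in CM, as PLG was, at 1.60-fold below IM (1.55 to 1.65), and CMT stood 1.99-fold above CM (1.92 to 2.06), short of a call. CPB2, whose product slows the breakdown of clots, had 6188, 5655 and 4868 counts and was not called. ENO1, a glycolytic enzyme that also binds plasminogen at cell surfaces, had 10502, 14004 and 7845 counts and was not called. ANXA2, S100A10 and SERPINI1 were not called either. SERPINB2, F12 and KLKB1 had at most 9 counts in a library, and KLKB1 had 0 in all of them.

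The 3 fibrinogen chains, which are assembled into 1 protein, did not share 1 order of the libraries. FGB, the beta chain gene, had 77, 124 and 92 counts, and FGG, the gamma chain gene, had 44, 21 and 27. FGB was 1.41-fold higher in CM than in IM (1.05 to 1.90), whereas FGG was 2.39-fold lower (1.39 to 4.24), and neither was called. Counts of FGB for each count of FGG were 1.75 in IM (1.19 to 2.60), 5.90 in CM (3.70 to 9.88) and 3.41 in CMT (2.20 to 5.44). FGG thus had the order of FGA by scaled counts, with CM lowest, while FGB was lowest in IM and had 124 counts in CM, where FGA had 0.

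Other coagulation genes were called in either direction. Of 16 compared genes on that list, castration went with 3 higher and 1 lower, beside 1.20% higher and 1.52% lower of all compared genes, and the median log2 fold of CM against IM was 0.06. F10, the gene of coagulation factor X, had 172, 516 and 184 counts and was 2.63-fold higher in CM (2.21 to 3.14). HRG, which encodes histidine-rich glycoprotein, had 187, 621 and 266 counts and was 2.91-fold higher (2.47 to 3.44). SERPIND1, which encodes the thrombin inhibitor heparin cofactor, had 17, 76 and 24 counts and was 3.92-fold higher (2.29 to 7.07). These genes had their highest scaled level in CM, the library where ALB, AFP and PLG were lowest. PROC, which encodes the anticoagulant protein C, was lower in CM by 3.30-fold (3.11 to 3.50), with 4211, 1458 and 2687 counts. In CMT against CM, PROC and SERPINC1, the antithrombin gene, were higher by 2.63-fold (2.47 to 2.81) and 2.68-fold (2.35 to 3.07), and 0 genes were lower. Of all compared genes, 1.84% were called higher and 1.11% lower in CMT against CM. In CMT against IM, 0 of the 16 were called, beside 0.905% higher and 0.595% lower of all compared genes. At such shares, 0 calls say nothing particular of this list. The most abundant genes of this list by scaled counts, CPB2, the kininogen gene KNG1 and F2, were called in no comparison; F2, which encodes prothrombin, had 3923, 4184 and 3228 counts.

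A list of 41 further plasma proteins of the liver had 38 genes in the table and 21 that passed 1 CPM. In CM against IM, 2 were higher and 2 were lower, beside the same 1.20% and 1.52% of all compared genes, and the median log2 fold was -0.13. TTR, which encodes the thyroid hormone carrier transthyretin, had 133, 489 and 775 counts and was 3.22-fold higher in CM than in IM (2.65 to 3.93). It was 2.26-fold higher again in CMT than in CM (2.02 to 2.54), a call that was lost with raw library totals and after thinning the libraries to equal depth. In CMT against IM, TTR was the only call of the list, at 7.29-fold higher (6.06 to 8.83). Of all compared genes, 0.905% were called higher and 0.595% lower there. The other gene higher in CM than in IM was IGFALS (27, 99 and 54 counts; 3.21-fold, 2.08 to 5.11), whose product carries insulin-like growth factors in plasma.

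TF, which encodes the iron carrier transferrin, was lower after castration by 2.20-fold (2.13 to 2.27), with 10365, 5382 and 7240 counts. SERPINF1, which encodes pigment epithelium-derived factor, was lower by 3.54-fold (3.15 to 3.99), with 1167, 376 and 874 counts. SERPINF1 was higher in CMT than in CM by 3.32-fold (2.94 to 3.76). In that comparison TTR and SERPINF1 were the genes of the list called higher and 0 were lower, beside 1.84% and 1.11% of all compared genes. At such shares, 0 lower says nothing particular of this list. TF and SERPINF1 thus had their lowest level in CM, like ALB, with smaller ratios. The other genes of the list ranged widely. The hemopexin gene HPX had 151, 361 and 125 counts, the retinol carrier gene RBP4 had 476, 294 and 242, and neither was called. SERPINA1, the antitrypsin gene, had 3, 1 and 0 counts, and 17 of the 38 genes were under 1 CPM.

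ASGR2, the gene of the minor subunit of the asialoglycoprotein receptor, gave 1 count in IM, 0 in CM and 8 in CMT. The 40 counts of ASGR1 in CM were therefore accompanied by 0 counts of ASGR2. In the RefSeq table ASGR2 and the related lectin gene CLEC10A precede ASGR1, and DLG4, a synaptic scaffold gene, is the next protein-coding gene on the other side. CLEC10A had 0 counts in every library, and DLG4 had 98, 145 and 85 counts, a ratio of CM to IM of 1.30 (0.996 to 1.69).

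Of the 9 listed liver lectins 8 were in the table and 2 passed 1 CPM, ASGR1 and COLEC11, a collectin gene of complement. COLEC11 had 42, 101 and 115 counts. Its order matched that of ASGR1, with CM above IM by 2.11-fold (1.46 to 3.10), not called, and CMT above IM by 3.43-fold (2.39 to 5.001), called. Of all compared genes, 0.905% were called higher in CMT against IM. Since ASGR1 was chosen by its values, COLEC11 is the only other compared gene of this list. FCN2, a ficolin gene, had 7, 3 and 15 counts, and MBL1 and MBL2, the mannose-binding lectin genes, had at most 1.

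The proportions of ALB, AFP and PLG to each other were not the same in every library. Counts of ALB for each count of AFP were 10.1 in IM (8.68 to 11.7) and 3.64 in CMT (2.94 to 4.53), and the intervals did not overlap. Counts of AFP for each count of PLG were 1.52 in IM (1.21 to 1.91) and 6.94 in CMT (4.09 to 12.6), again without overlap. Counts of ALB for each count of PLG were 15.2 in IM (12.7 to 18.4) and 25.2 in CMT (15.4 to 44.6), with overlap. In CM the 24, 6 and 4 counts gave ratios of ALB to AFP of 4.0 (1.59 to 11.96) and of ALB to PLG of 6.0 (2.06 to 23.8), too wide to place. A count ratio of a pair of genes also depends on their lengths, so that it can be compared between libraries but not between pairs.

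**Figure D3:**
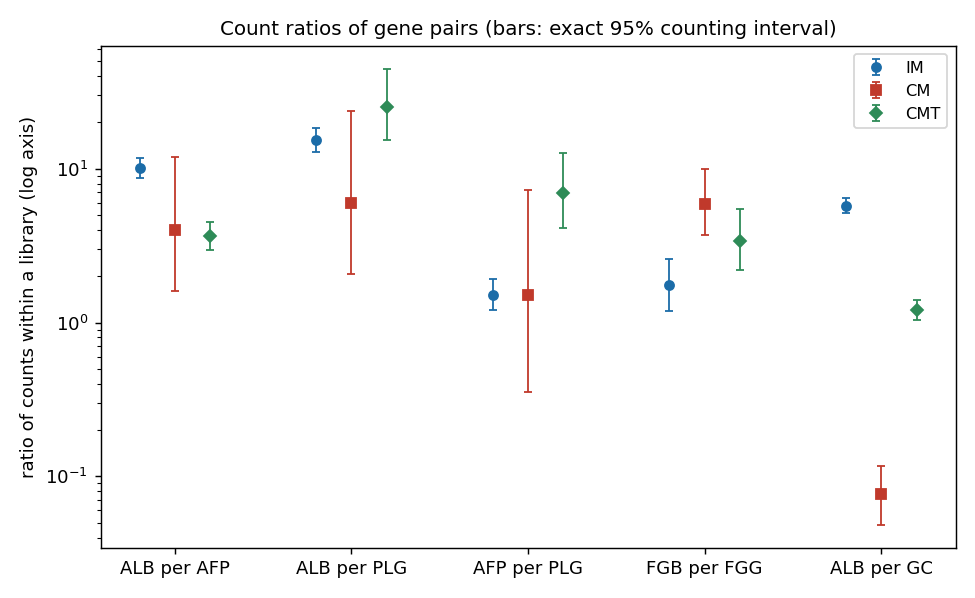
Count ratios of gene pairs within each of the IM, CM and CMT libraries on a log axis, with exact 95% counting intervals as bars. ALB per AFP is 10.1 in IM and 3.64 in CMT, AFP per PLG is 1.52 and 6.94 in these libraries, and ALB per GC spans from 5.76 in IM to 0.0767 in CM.

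The tissue label was checked against marker genes. All 17 kidney markers found in the table passed 1 CPM, from UMOD of the loop of Henle (94626, 130566 and 105591 counts) to NPHS1 of the podocyte (147, 178 and 151). Of these kidney markers 0 were called in any comparison. With at most 1.84% of all compared genes called in a direction, 0 of 17 says nothing particular of these markers.

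Hepatocyte genes were read in the same way, since ALB, AFP and PLG are known from that cell. Of 27 listed, 23 were in the table, 4 of them at 0 in all libraries: CPS1 of the urea cycle, the bile acid importer SLC10A1, the histidine-degrading enzyme HAL and the cytochrome CYP2E1. A further 6 had under 10 counts in every library, among them APOB (1, 0 and 5 counts) and CYP7A1 (1, 1 and 3). The 13 genes under 1 CPM summed to 40, 47 and 39 counts, or 2.42, 2.49 and 2.95 CPM.

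The other 10 hepatocyte genes passed 1 CPM, and the whole list summed to 1008 CPM in IM, 1090 CPM in CM and 1404 CPM in CMT. AGXT, a peroxisomal aminotransferase, F2 and HAO1, a peroxisomal oxidase, were its most abundant genes by scaled counts, made up most of this sum and were called in no comparison. The sum joins these genes, high in every library, with genes at 0 in all libraries, and is not a measure of hepatocyte RNA. In CM against IM the list had 1 higher gene, TTR, and 0 lower, with a median log2 fold of 0.09. In CMT against CM it had 2 higher, SERPINC1 and TTR, and 0 lower, and in CMT against IM TTR alone was higher. Over all compared genes, 1.20%, 1.84% and 0.905% were called higher in these comparisons, in the order given. At most 1.52% were called lower in any of them, so 0 lower of 10 genes says nothing particular of this list. The TTR call in CMT against CM was lost with raw library totals and after thinning, as said above. The part of hepatocyte RNA in the values of ALB, AFP and PLG was not tested.

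**Figure D4:**
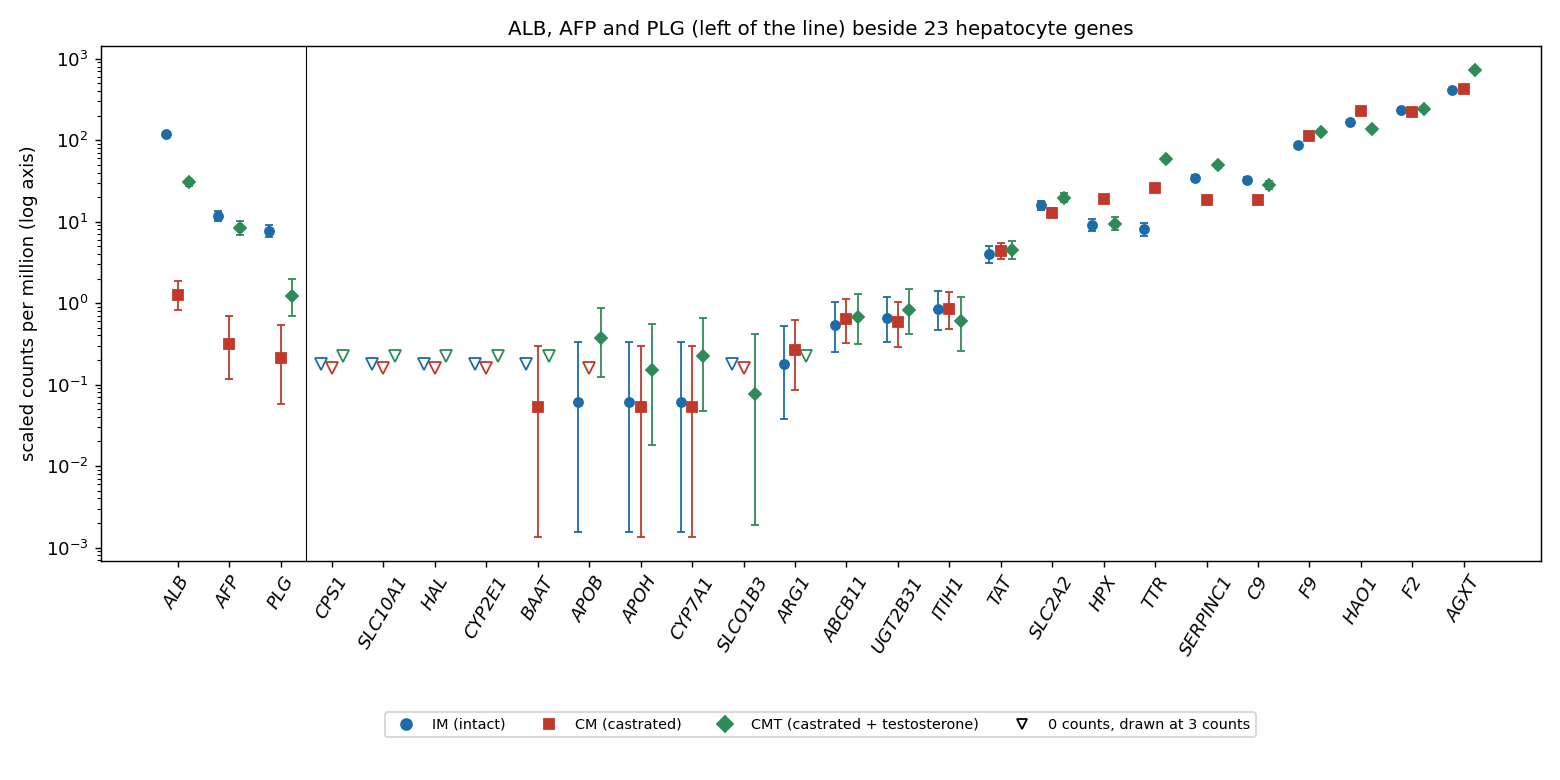
TMM-scaled CPM on a log axis in the IM, CM and CMT libraries for ALB, AFP and PLG, left of the line, and 23 hepatocyte genes, right of it; bars are exact 95% Poisson intervals and open triangles mark 0 counts, drawn at 3 counts. ALB spans from 1.27 CPM in CM to 117.9 CPM in IM, while CPS1, SLC10A1, HAL and CYP2E1 are at 0 in each library and AGXT, F2 and HAO1 are high in all of them.

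Transcription factors that drive ALB and related genes in liver were measured as well. HNF4A, a nuclear receptor active in hepatocytes and in proximal tubule, had 14614, 16404 and 12147 counts, a ratio of IM to CM of 1.02 (0.995 to 1.04). It was called in no comparison. CEBPA, a leucine zipper factor of hepatocytes and fat cells, had 230, 459 and 208 counts, a ratio of CM to IM of 1.75 (1.49 to 2.06), not called. ZHX2, known in mouse liver as a repressor of AFP, had 201, 199 and 155 counts. The liver pioneer factors FOXA1, FOXA2 and FOXA3 had at most 7 counts in a library.

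Of 11 compared liver-enriched factors, 1 was called higher and 0 lower in the castrated pool, beside 1.20% and 1.52% of all compared genes, the median log2 fold against IM being -0.02. The higher one was CREB3L3, a factor of lipid and acute phase genes, with 35, 411 and 667 counts. In CMT against CM, 3 were higher and 0 lower, beside 1.84% and 1.11% of all compared genes, with a median log2 fold of 0.15. They were CREB3L3 at 2.32-fold (2.05 to 2.63), the bile acid receptor gene NR1H4 at 2.45-fold (2.20 to 2.73; 957, 536 and 921 counts) and its target NR0B2 at 3.86-fold (2.17 to 7.19; 29, 17 and 46 counts). NR1H4 and NR0B2 were lowest in CM, like ALB, but highest in CMT, and neither was called in CM against IM, where NR1H4 stood 2.04-fold lower (1.83 to 2.27). In CMT against IM, CREB3L3 was the only call of this list, and it was higher, beside 0.905% higher and 0.595% lower of all compared genes.

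Genes through which the kidney takes up filtered albumin were read beside these. CUBN, which encodes cubilin, had 25207, 33712 and 22921 counts, and LRP2, which encodes megalin, had 2510, 3083 and 1745. Neither was called in any comparison. Of 13 compared genes of this uptake and of lysosomal breakdown, CTSB, a lysosomal protease gene, was the only call. It was 2.21-fold lower in CM than in IM (2.19 to 2.23), with 190969, 98669 and 93387 counts. Over all compared genes 1.52% were called lower and 1.20% higher in CM, and at most 1.84% in a direction in any comparison. At such shares, few calls say nothing particular of this list.

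The genes with the pattern most like each of ALB, AFP, PLG and ASGR1 were sought over the 3 libraries, by the distance between log2 levels centred on each gene's own mean. With 3 points, such a likeness describes these libraries only, and distances and ranks depend on the prior count of 2. This holds most where a gene has 0 counts (LRCOL1, DCDC2B, BD123 and ASGR1). It also holds at low counts, such as those of AFP, PLG, TRDN and IDI1 in CM. Nearest to ALB were LRCOL1 (58, 0 and 17 counts; distance 1.09), DCDC2B (190, 0 and 102; 1.19), AFP (1.28) and the beta-defensin gene BD123 (75, 0 and 56; 1.32). Nearest to AFP were TRDN (135, 6 and 89 counts; 0.37), the calcium-binding protein gene S100A11 (351, 20 and 235; 0.41), BD123 (0.62) and LRCOL1 (0.68). The TRDN row is typed as miscRNA, and its symbol was looked up from a numbered identifier.

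Nearest to PLG were IDI1 (96, 10 and 29 counts; distance 1.06), a gene of cholesterol synthesis, LRCOL1 (1.13), the glucuronidation gene UGT1A10 (133, 24 and 45; 1.44) and ESR1 (252, 18 and 140; 1.46), the estrogen receptor alpha gene. Nearest to ASGR1 were CREB3L3 (0.63), the acyl-CoA synthetase gene ACSM5 (23, 610 and 343 counts; 0.83), PLK5 (19, 181 and 287; 0.91) and the metallothionein gene MT1A (82, 4013 and 860; 1.77). Of these 13 different genes, AFP and CREB3L3 were the ones that also stand on the lists of liver genes used here. UGT1A10 and MT1A have close copies, and how their reads were shared among copies is not given in the sources used here.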

How the data were processed

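Kidney RNA of 3 pooled groups (IM, CM, CMT; 3 pigs each) was compared from the deposited table of raw counts per gene. The authors' counts are whole numbers with different totals; per the submitters' processing notes FastQC was used, while aligner, counter, strandedness and genome build are not given in the sources used here, nor is the sequencing platform settled, since the labels' protocols name an Ion Torrent kit and the design text an Illumina instrument. Symbols were looked up in RefSeq for 1556 of 19902 numbered identifiers. An unnamed column of no sample (1 column) was not used.

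TMM factors came from edgeR 4.0.16 in R 4.3.3, ratios and exact Clopper-Pearson and Poisson 95% intervals from scipy 1.17.1. Genes with a mean of at least 1 scaled CPM (15472) were compared, and log2 folds used a prior count of 2. With 1 library per group no test was possible. The 12 lists held 210 genes, of which 187 were in the table; those not found in the table are not analysed here. Named genes were the 5 genes, list genes that were called or belong to their families, the most abundant of each list and the 4 nearest patterns of each gene; other genes were added after their values were seen. The genes and lists were chosen with earlier results of these data known. Alternatives covered scaling, thinning, the filter, the prior count and the calling fold. Some genes that the rule took are not reported here.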

Additional observations from a re-analysis of the deposited data

How the results depend on the processing

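Every log2 ratio of the 5 genes kept its direction, and stayed within its counting interval or, against 0 counts, moved by less than 1, under raw library totals, DESeq2 size factors, thinning to the smallest library and totals without ribosomal and mitochondrial RNA (60 values). With a prior count of 0.5 the 15 log2 folds kept their direction and lay within the counting intervals, which are open on one side against 0 counts. The calls of ALB and AFP were the same under all 8 alternatives for calls. PLG and ASGR1 fell out of the compared genes at a minimum of 5 CPM, PLG was called higher in CMT than in CM with intervals beyond 1.5-fold, and FGA was called lower in CM than in IM without a filter.

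Counts over all genes depended on the threshold by construction. With intervals beyond 1.5-fold, 434 genes were called higher and 529 lower in CM against IM, 570 and 404 in CMT against CM, and 356 and 223 in CMT against IM. With intervals beyond 3-fold these were 81 and 118, 129 and 67, and 53 and 37. At a minimum of 5 CPM, which leaves fewer genes, they were 116 and 155 in CM against IM, 201 and 99 in CMT against CM, and 89 and 43 in CMT against IM. The main counts were 185 and 235, 285 and 171, and 140 and 92. No paired analysis was possible because each group has 1 library, so no spread between pigs is known. Depth limits FGA, AFM and ASGR2, among others, and the CM levels of AFP and PLG, which rest on 6 and 4 counts.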

Other observations

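Marker genes of pancreas, intestine and skeletal muscle were mostly near 0, while 8 of 15 blood cell markers in the table passed 1 CPM. Of 14 pancreas and intestine markers in the table, 12 were under 1 CPM and 6 had 0 counts in all libraries, among them the hormone genes INS and GCG. CELA2A, a pancreatic elastase gene, was 3.18-fold higher in CM than in IM (2.24 to 4.61) and lower in CMT than in CM by 4.97-fold (3.13 to 8.26), with 41, 149 and 21 counts in IM, CM and CMT, highest in CM and lowest in CMT. Of 13 skeletal muscle markers 10 were under 1 CPM. The 3 compared were ACTA1, CKM (412, 387 and 275 counts) and DES (849, 685 and 514). They gave 0 calls in any comparison, beside at most 1.84% of all compared genes called in a direction. Among 8 compared blood cell markers, HBB, the beta-globin gene, had 920, 1322 and 1261 counts and was not called, while S100A12, known from granulocytes, had 7, 5 and 87 counts and was 15.5-fold higher in CMT than in IM (7.23 to 39.8) and 24.9-fold higher than in CM (10.3 to 78.5). The other granulocyte genes S100A8 (1, 4 and 4 counts) and S100A9 (1, 4 and 7) were under 1 CPM, and the leukocyte gene PTPRC had 225, 339 and 174 counts and was not called. CD79A of B cells (18, 54 and 8 counts) was 4.73-fold lower in CMT than in CM (2.24 to 11.5), a call that was lost after thinning. The calls of CELA2A, S100A12 and CD79A stand beside the shares of all compared genes. In CM against IM 1.20% were called higher, and in CMT against IM 0.905%. In CMT against CM 1.84% were called higher and 1.11% lower. The part of blood cells in other differences was not tested.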
